A study of Mus musculus with 8 samples.

Results

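The genes described here are 32 members of glucose uptake, glycolysis, pyruvate handling and the transcriptional response to low oxygen. They were chosen by symbol, and all 32 were found among the 18561 genes of the deposited table and passed the filter on low counts. Expression was measured in 8 bulk libraries of sorted mouse cells labelled as enteric neural crest cells (ENCCs), the embryonic precursors of the gut's neurons and glia. All came from gastrointestinal tracts at embryonic day 14.5 and were sorted with antibodies to CD271 and CD57, with about 200 cells to a tube. By genotype label, 5 libraries were Emb knockdown and 3 were WT. The labels gave no strain, sex or litter, did not say how the knockdown was made and did not tie a tube to an animal. A p-value here sets group differences against the variation among these 8 tubes, part of which may be technical.

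Glycolysis turns glucose into pyruvate in the cytosol, with the enzymes of its upper steps consuming ATP and those of its lower steps returning it. Pyruvate is then either reduced to lactate by lactate dehydrogenase or carried into mitochondria and oxidised by the pyruvate dehydrogenase complex. When oxygen is low, prolyl hydroxylases stop marking the HIF alpha proteins for destruction, and the stabilised factors raise transcription of many glycolytic genes and of genes such as Vegfa. Emb, the targeted gene, encodes embigin, a partner of the transporters that carry lactate and pyruvate across the cell membrane.

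Library totals ran from 20116607 to 26959265 expected counts. Levels in single libraries are given as CPM, which is counts per 1000000 of the library size after TMM scaling over the 8 libraries, a correction for composition. The targeted gene went against its label, since Emb was at 353, 349, 37.2, 21.4 and 21.7 CPM in knockdown-labelled libraries 1 to 5 and at 16.9, 17.7 and 15.9 CPM in WT 1 to 3. Its log2 fold change without libraries 1 and 2 was 0.67 ± 0.26 (SE, adjusted p = 0.0972 in edgeR's test). Directions below therefore compare libraries by label. Knockdown-labelled libraries 1 and 2 also stood apart in cell type markers. In both, a list of 12 leukocyte genes summed to 1.64% and 1.36% of all counts, compared with 0.128% to 0.204% in the other 3 labelled knockdown and 0.0385% to 0.0506% in WT. The list of 10 neural crest genes summed to 0.0160% and 0.0133%, compared with 0.108% to 0.121% and 0.327% to 0.350%, and Sox10, Tlx2 and Foxd3 had no count in knockdown-labelled library 2. The other 6 libraries also differed by label in such markers, at an adjusted p under 0.05 in edgeR's test. There, 10 of the 12 leukocyte genes rose and 8 of the 10 neural crest genes fell. Of 10 genes in each list, 8 endothelial and 5 neuron genes fell and 5 mesenchyme genes rose. Of 9 erythroid genes 1 rose, and of 8 epithelial genes 0 passed. Over all genes tested, 11.1% rose and 9.37% fell. Results are given for all 8 libraries and for the 6 without knockdown-labelled libraries 1 and 2, a choice made with the marker levels of those 2 known. In bulk samples, fewer cells of a type and less RNA per cell cannot be told apart.

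In the 6 libraries, 3 members rose, 3 fell and 26 did not pass the threshold, a Benjamini-Hochberg adjusted p under 0.05 in edgeR's quasi-likelihood test. Those that rose were Hk2, Mpc2 and Egln1, and those that fell were Hk1, Pkm and Epas1. Over all 15115 genes tested, 11.1% rose and 9.37% fell, so the shares among the members were near the background. The median log2 fold change of the members was -0.11 and that of all genes 0.02. Groups did not overlap for 7 members on the higher side and 8 on the lower side, where 20.5% and 22.8% of all genes did the same. DESeq2 called 4 members higher and 7 lower, where it called 28.8% of all genes in either direction, and limma voom with quality weights called 3 and 14, where it called 45.7%. Without knockdown-labelled library 3, 12 members fell and 3 rose, where 19.6% of all genes fell and 19.2% rose. Without knockdown-labelled library 4, WT 2 or WT 3, 1 member fell and 0 rose, where 0.492% to 1.25% of all genes fell and 0.673% to 1.45% rose. The share of all genes called thus moved with the count of members. On the lower side, the members' share was above that of all genes with DESeq2, with voom and without knockdown-labelled library 3. No test of the list was run.

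With all 8 libraries, 0 members passed in edgeR's quasi-likelihood test, as did 0.0% of the 15411 genes tested. At an unadjusted p under 0.05 there were 7 members, where 18.6% of all genes reached that level. DESeq2's Wald test called 3 members higher and 1 lower, against 8.66% and 3.26% of all genes with a p-value. Limma voom with quality weights called 3 higher and 6 lower, against 24.0%. Groups did not overlap for 6 members on the higher side (Hk2, Pfkfb3, Tpi1, Mpc1, Mpc2 and Car9) and 2 on the lower side (Ldhb and Epas1), where 10.8% and 11.9% of all genes did so. Those groupings are in CPM and depend on the scaling. In FPKM, which is fragments per kilobase of transcript scaled to library size, Tpi1 and Mpc1 overlapped WT. Hk1, Pfkl, Pkm and Pdha1 then also lay below every WT library. The share of all genes in FPKM was not worked out. The plot of fold changes gives all 32 members in both comparisons.

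**Figure D1:**
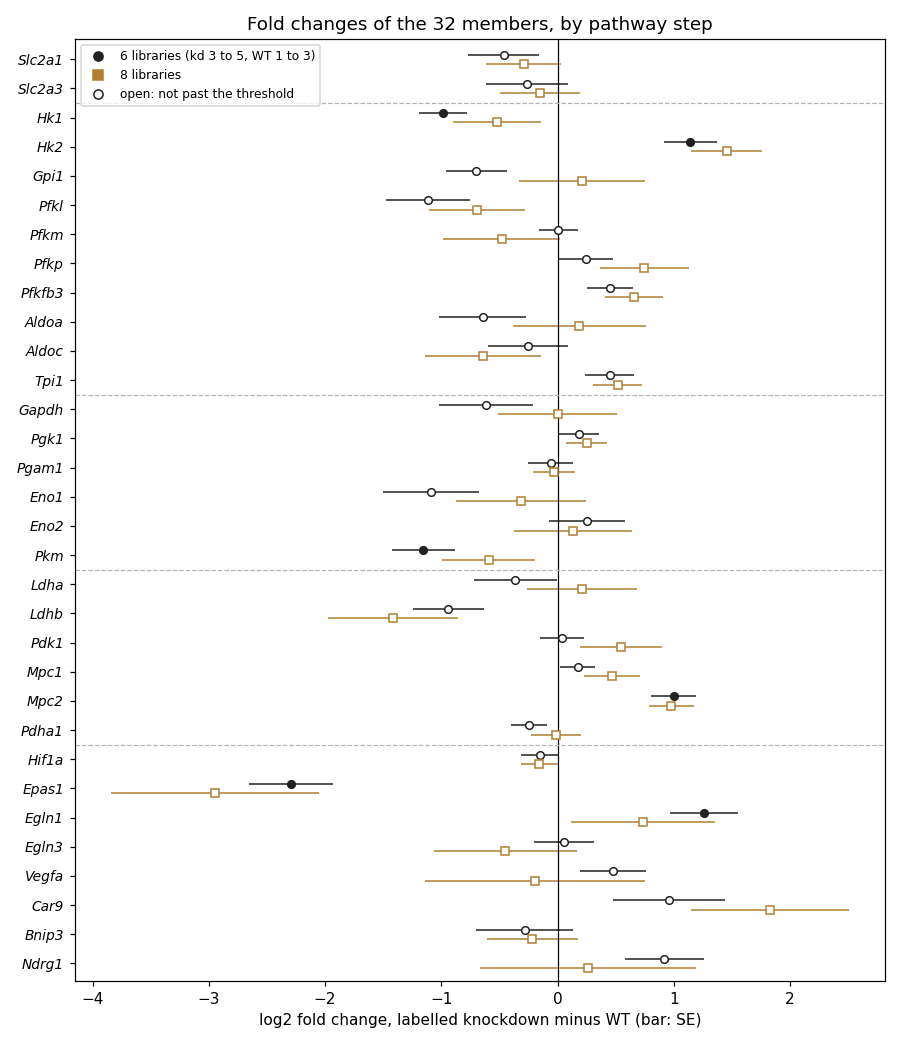
Log2 fold change (x axis, labelled knockdown minus WT, bars are standard errors) of the 32 members ordered by pathway step (y axis), for 6 libraries (circles) and 8 libraries (squares). Filled symbols passed the threshold: Hk2, Mpc2 and Egln1 to the right of 0 and Hk1, Pkm and Epas1 to the left, all 6 in the comparison of 6 libraries.

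HIF factors bind DNA at a short core that can read ACGTG or GCGTG. Only ACGTG, called the core below, was looked for, on both strands as ACGTG or CACGT, in RefSeq promoter windows of GRCm38.p6. Copies of GCGTG were not counted or marked. A window holds 300 bases, from 250 before a gene's start to 50 after it. The letters CACGTG hold the core on both strands and count as 2 matches that overlap. Windows were given for 29 members, matched by gene identifier, and 18 of them (62.1%) had the core in at least 1 window, where 21.8% of all 27025 genes with a window did. By window, 21 of 44 (47.7%) had it, against 19.6% of all 32851. The members were listed as glycolytic and hypoxia genes, many of them known HIF targets, so this excess describes the list. The windows of all genes were not matched to those of the members for GC content, and its part was not tested. A match is a match of letters and not a measured binding site. The windows of the 5 called members with an entry are shown because their transcripts moved in opposite directions, with that of Ldha, which had the most matches of any member. Capitals mark the core, each window reads 5′ to 3′ on the gene's strand, and for genes with several windows the one with the most matches is given.
Hk2, chr6:82774405-82774704, minus strand: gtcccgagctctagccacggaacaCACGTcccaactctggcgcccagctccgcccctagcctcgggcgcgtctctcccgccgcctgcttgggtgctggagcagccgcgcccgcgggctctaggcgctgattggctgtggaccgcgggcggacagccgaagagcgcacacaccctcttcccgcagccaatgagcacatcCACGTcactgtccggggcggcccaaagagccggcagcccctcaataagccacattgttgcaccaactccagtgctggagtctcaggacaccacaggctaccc
Mpc2, chr1:165461010-165461309, plus strand: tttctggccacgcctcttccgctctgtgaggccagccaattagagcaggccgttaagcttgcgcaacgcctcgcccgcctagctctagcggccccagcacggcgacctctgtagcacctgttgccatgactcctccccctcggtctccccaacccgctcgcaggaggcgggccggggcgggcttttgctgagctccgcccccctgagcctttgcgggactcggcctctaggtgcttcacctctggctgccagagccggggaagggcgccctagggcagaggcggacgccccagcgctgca
Egln1, chr8:124949205-124949504, minus strand: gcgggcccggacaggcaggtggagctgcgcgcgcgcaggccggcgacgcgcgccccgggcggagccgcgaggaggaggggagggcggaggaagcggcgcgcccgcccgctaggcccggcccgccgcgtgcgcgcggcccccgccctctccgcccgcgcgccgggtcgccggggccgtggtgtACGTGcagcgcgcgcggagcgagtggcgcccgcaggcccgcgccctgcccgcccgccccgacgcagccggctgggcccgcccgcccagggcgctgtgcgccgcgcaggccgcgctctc
Hk1, chr10:62340372-62340671, minus strand: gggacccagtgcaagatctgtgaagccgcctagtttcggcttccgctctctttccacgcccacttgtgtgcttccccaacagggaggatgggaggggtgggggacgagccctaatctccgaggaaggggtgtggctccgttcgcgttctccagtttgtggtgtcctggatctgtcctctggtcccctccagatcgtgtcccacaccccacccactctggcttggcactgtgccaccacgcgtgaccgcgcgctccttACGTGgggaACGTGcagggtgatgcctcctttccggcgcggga
Pkm, chr9:59656977-59657276, plus strand: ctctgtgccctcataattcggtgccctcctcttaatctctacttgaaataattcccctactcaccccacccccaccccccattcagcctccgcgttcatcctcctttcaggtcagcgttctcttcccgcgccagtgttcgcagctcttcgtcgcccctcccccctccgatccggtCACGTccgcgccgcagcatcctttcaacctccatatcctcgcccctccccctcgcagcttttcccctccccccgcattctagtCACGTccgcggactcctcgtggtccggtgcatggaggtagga
Ldha, chr7:46845554-46845853, plus strand: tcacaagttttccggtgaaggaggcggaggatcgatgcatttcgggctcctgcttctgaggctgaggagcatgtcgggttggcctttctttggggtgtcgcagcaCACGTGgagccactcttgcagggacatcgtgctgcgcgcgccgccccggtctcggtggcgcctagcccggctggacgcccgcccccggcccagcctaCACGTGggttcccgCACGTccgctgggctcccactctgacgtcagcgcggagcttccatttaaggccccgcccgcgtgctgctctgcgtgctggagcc
Among the members that rose, the window of Hk2 held 2 matches, that of Egln1 1 and that of Mpc2 0. Those of Hk1 and Pkm, which fell, held 2 each. The window of Ldha, which did not pass in 6 libraries, held 5.

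Per transcript length, the most abundant member in WT was Gapdh, at 2908 ± 493 FPKM (SD, n = 3), a unit of fragments per kilobase of transcript scaled to library size. It ranked 18 among all genes. Eno1 at 1322 ± 148 FPKM and Pkm at 1080 ± 106 FPKM came next, with overlapping ranges. Ldha followed at 867 ± 52.1 FPKM and Aldoa at 728 ± 93.9 FPKM. Pgam1 was at 344 ± 7.09 FPKM, and Ldhb, Pgk1 and Tpi1 were between 274 and 296 FPKM with overlapping ranges. The lowest members were Hk2 at 4.64 ± 0.359 FPKM, Eno2 at 3.85 ± 0.965 FPKM and Car9 at 1.47 ± 0.493 FPKM. Abundant enzymes such as Gapdh, Eno1 and Ldha have near-identical pseudogene copies, and reads shared with those copies make the counts of such genes uncertain. The near-copy Eno1b held at most 3.1 expected counts in any library.

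The transcripts of the glucose transporters did not pass in either comparison. Slc2a1, the widely expressed GLUT1 gene, was at 128, 93.3, 130, 66.6 and 54.7 CPM in knockdown-labelled libraries 1 to 5 and at 101, 127 and 119 CPM in WT 1 to 3. Knockdown-labelled libraries 4 and 5 lay below every WT library, while the other 3 lay within or near the WT range. The log2 fold change in 6 libraries was -0.46 ± 0.31 (SE, adjusted p = 0.298 in edgeR's test), and without knockdown-labelled library 3 it was -0.95 (adjusted p = 0.00443). Slc2a3, which encodes the high-affinity transporter GLUT3, ranged from 17.0 to 51.0 CPM in the knockdown-labelled libraries and from 35.2 to 44.8 CPM in WT.

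The hexokinase genes, whose products trap glucose in the cell as its phosphate, moved in opposite directions. Hk2 (chromosome 6, 82725025 to 82774454 of GRCm38.p6), the inducible form, was at 76.4, 71.8, 34.8, 43.4 and 60.0 CPM in knockdown-labelled libraries 1 to 5 and at 19.9, 21.3 and 21.5 CPM in WT 1 to 3. Every knockdown-labelled library was above every WT library, the leukocyte-rich ones being highest. Hk2 rose by 1.14 ± 0.23 (log2, adjusted p = 0.0158 in edgeR's test) in 6 libraries, from 22.7 ± 0.945 CPM in WT to 50.2 ± 14.0 CPM (SD, n = 3 each, scaled over those 6). With 8 libraries the log2 fold change was 1.45 ± 0.31 without passing (adjusted p = 0.137). Hk1 (chromosome 10, 62268855 to 62379920), the constitutive form that is prominent in neural tissue, was at 37.5, 72.2, 34.1, 28.3 and 21.5 CPM and at 54.7, 54.5 and 57.4 CPM. Knockdown-labelled library 2 was above WT and the other 4 were below. Hk1 fell by 0.99 ± 0.21 on the log2 scale in 6 libraries (adjusted p = 0.0170). Of 10 neuron markers 5 fell and 0 rose in the same 6 libraries, and their part in the fall of Hk1 was not tested. The promoter windows printed above hold 2 matches each for Hk1 and Hk2. The calls of both genes ended without knockdown-labelled library 4 (adjusted p = 0.0692 for Hk2 and 0.0823 for Hk1), WT 2 (0.0672 and 0.0679) or WT 3 (0.0719 and 0.0802), and that of Hk2 also without WT 1 (0.0527).

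As a share of the summed FPKM of Hk1 and Hk2, Hk2 made up 58.6%, 42.1%, 41.7%, 51.9% and 65.6% in knockdown-labelled libraries 1 to 5 and 20.9%, 22.7% and 21.5% in WT 1 to 3. The lowest share among the knockdown-labelled libraries was thus well above the highest in WT, in libraries 3 to 5 as in the leukocyte-rich libraries 1 and 2. Leukocyte markers were also above WT in knockdown-labelled libraries 3 to 5, at 0.128% to 0.204% of counts against 0.0385% to 0.0506%. Hk3, the hexokinase of myeloid cells, was at 162 and 132 CPM in knockdown-labelled libraries 1 and 2, at 9.44 to 12.6 CPM in the other 3 and at 1.25 to 5.08 CPM in WT. It rose by 1.72 ± 0.49 in 6 libraries (edgeR's test, adjusted p = 0.0411), a call that ended without knockdown-labelled library 4 (0.132) or 5 (0.0904) or without WT 1 (0.0563), 2 (0.110) or 3 (0.0917). Of the 12 leukocyte markers, 10 also rose in the 6 libraries and 0 fell, with a median log2 fold change of 2.18. The part of leukocytes in the change of Hk2 was not tested.

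**Figure D2:**
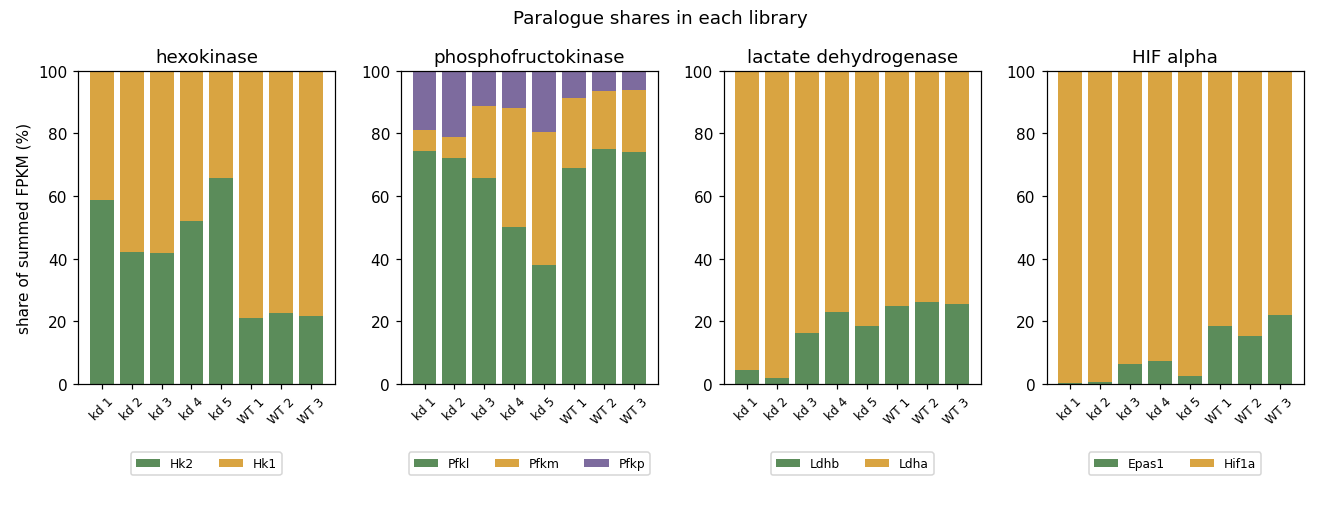
Share of summed FPKM (y axis, percent) held by each paralogue in each of the 8 libraries (x axis; kd, labelled knockdown), for hexokinase, phosphofructokinase, lactate dehydrogenase and the HIF alpha genes. Hk2 holds 41.7% to 65.6% of hexokinase FPKM in the knockdown-labelled libraries and 20.9% to 22.7% in WT, and Epas1 and Ldhb hold less of their pairs in every knockdown-labelled library than in any WT library.

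Of the other upper-step enzymes, none passed. Gpi1, the glucose phosphate isomerase gene, was at 894, 875, 402, 219 and 207 CPM in knockdown-labelled libraries 1 to 5 and at 445, 445 and 457 CPM in WT 1 to 3, so that its levels in the 5 libraries lay on both sides of a narrow WT range. Pfkl, the liver-type phosphofructokinase gene, was at 212, 232, 198, 89.4 and 72.5 CPM and at 209, 304 and 268 CPM. In 6 libraries the log2 fold changes were -0.70 ± 0.26 for Gpi1 (adjusted p = 0.0881 in edgeR's test) and -1.11 ± 0.36 for Pfkl (0.0576). Both were called lower by DESeq2 (0.0387 and 0.00960), and by edgeR without knockdown-labelled library 3 (0.00146 and 0.00134). Pfkm, the muscle-type gene, was at 14.5 and 16.2 CPM in knockdown-labelled libraries 1 and 2 and at 50.4 to 60.5 CPM in the other 6. Pfkp, the platelet-type gene, was highest in those 2, at 47.3 and 59.3 CPM, and at 18.7 to 30.8 CPM elsewhere.

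The make-up of phosphofructokinase therefore differed between libraries. Pfkl held 68.8% to 75.0% of the summed FPKM of the 3 genes in WT, and 74.3%, 72.2%, 65.8%, 50.0% and 37.9% in knockdown-labelled libraries 1 to 5. Pfkp held 6.26% to 8.75% in WT and 11.4% to 21.1% in the knockdown-labelled libraries, with no overlap. Pfkfb3, whose product makes the activator of phosphofructokinase, was at 55.0, 42.8, 31.6, 37.5 and 36.5 CPM in knockdown-labelled libraries 1 to 5 and at 21.3, 26.7 and 29.5 CPM in WT 1 to 3. All 5 were above WT, yet the log2 fold change of 0.45 ± 0.20 in 6 libraries did not pass (adjusted p = 0.134 in edgeR's test).

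Aldolase and triose phosphate isomerase behaved unlike each other. Aldoa, the main aldolase gene, was at 1454, 1700, 888, 433 and 276 CPM in knockdown-labelled libraries 1 to 5 and at 745, 885 and 874 CPM in WT 1 to 3, a 6.15-fold span among the former and a 1.19-fold span in WT. Its log2 fold change in 6 libraries was -0.65 ± 0.37 (adjusted p = 0.240 in edgeR's test) and, without knockdown-labelled library 3, -1.25 (0.00490). Aldoc, the aldolase of brain and glia, was low throughout, at 3.76 to 12.7 CPM and 8.70 to 12.9 CPM. Tpi1 was at 482, 556, 590, 403 and 385 CPM and at 376, 313 and 323 CPM. All 5 CPM values of Tpi1 were above WT, but in FPKM knockdown-labelled library 1 was at 261, below the 264 to 294 of WT. The log2 fold change of Tpi1 in 6 libraries, 0.45 ± 0.21, did not pass (0.155).

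Among the enzymes of the lower steps, Pkm fell. Pkm (chromosome 9, 59656576 to 59679372), the pyruvate kinase gene whose splicing gives the M1 and M2 forms that gene counts do not separate, was at 1971, 2193, 1353, 773 and 713 CPM in knockdown-labelled libraries 1 to 5 and at 1981, 2251 and 2105 CPM in WT 1 to 3. In CPM, knockdown-labelled libraries 1 and 2 were at the WT level and the other 3 below it. In FPKM, libraries 1 and 2 were also below WT, at 674 and 787 compared with 974 to 1186. In 6 libraries Pkm fell by 1.16 ± 0.27 on the log2 scale (adjusted p = 0.0233 in edgeR's test), and in 8 the log2 fold change was -0.59 ± 0.40 (0.475). The call ended without knockdown-labelled library 4 (0.114) or 5 (0.0650), WT 2 (0.0846) or WT 3 (0.0856). Eno1, the widely expressed enolase gene, was at 2299, 2459, 1513, 628 and 434 CPM and at 1658, 1881 and 1940 CPM. Its log2 fold change in 6 libraries was -1.09 ± 0.41 (adjusted p = 0.0910 in edgeR's test, 0.0196 in DESeq2's), and without knockdown-labelled library 3 it was -1.79 (0.00141).

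Gapdh, which is often used as a reference gene, was at 4652, 4514, 3256, 1678 and 933 CPM in knockdown-labelled libraries 1 to 5 and at 3702, 2687 and 2623 CPM in WT 1 to 3. Its level thus spanned 4.99-fold within the knockdown-labelled libraries and 1.41-fold within WT. Its log2 fold change was -0.62 ± 0.41 in 6 libraries (adjusted p = 0.300 in edgeR's test) and -1.21 without knockdown-labelled library 3 (0.0160). Pgk1 and Pgam1, the neighbours of Gapdh in the pathway, stayed within narrow limits. Pgk1 was at 402 to 516 CPM and 366 to 451 CPM, and Pgam1 at 418 to 581 CPM and 472 to 526 CPM. Their log2 fold changes were 0.18 ± 0.18 and -0.06 ± 0.19. Eno2, the neuronal enolase gene, was at 3.19 to 13.0 CPM and 5.89 to 10.7 CPM, and did not pass (0.25 ± 0.33, adjusted p = 0.602).

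The knockdown-labelled libraries therefore fell into different patterns for the abundant enzymes, as the colour map shows. Relative to the WT mean, knockdown-labelled libraries 4 and 5 held 0.559 and 0.311 times as much Gapdh, 0.344 and 0.238 times as much Eno1, and 0.519 and 0.331 times as much Aldoa. Knockdown-labelled library 3 held 1.08, 0.828 and 1.06 times the WT mean of the same 3 genes, and knockdown-labelled libraries 1 and 2 held 1.26 to 2.04 times. Those ratios depend on the TMM factors, which were 0.758 and 0.794 in libraries 1 and 2 and 1.08 to 1.15 in WT. In FPKM, Eno1 in libraries 1 and 2 was at 1108 and 1250, below its WT mean of 1322. Gapdh at 3005 and 3077 and Aldoa at 842 and 1039 FPKM were above their WT means of 2908 and 728. Together, the 18 genes of uptake and glycolysis took 1.01%, 1.11%, 1.03%, 0.547% and 0.455% of counts in knockdown-labelled libraries 1 to 5 and 1.13%, 1.15% and 1.10% in WT 1 to 3. Knockdown-labelled libraries 4 and 5 were the 2 lowest, and the other 6 lay within 1.01% to 1.15%. Libraries 4 and 5 also had the 2 smallest totals, at 20797533 and 20116607 counts. WT 1, with a share of 1.13%, had the next smallest total, at 21248200 counts. The part of depth was not tested.

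**Figure D3:**
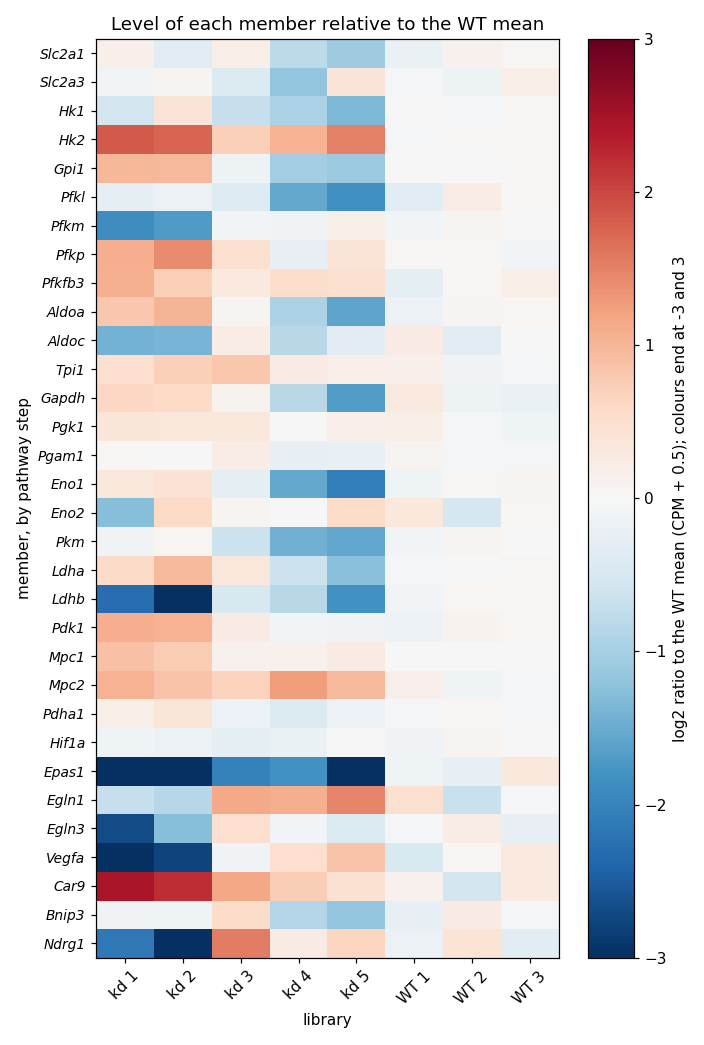
Log2 ratio of each member's CPM to its WT mean (colour, with 0.5 added to each CPM) for the 32 members by pathway step (y axis) in the 8 libraries (x axis; kd, labelled knockdown). Blue cells for Gpi1, Pfkl, Aldoa, Gapdh, Eno1, Pkm and Ldha mark knockdown-labelled libraries 4 and 5, dark blue cells for Ldhb, Vegfa and Ndrg1 mark knockdown-labelled libraries 1 and 2, and Epas1 is blue in all 5 knockdown-labelled libraries.

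Lactate dehydrogenase is a tetramer of subunits from Ldha, the form typical of glycolytic tissue, and Ldhb, the form typical of oxidative tissue. Ldha was at 1622, 2114, 1371, 696 and 451 CPM in knockdown-labelled libraries 1 to 5 and at 1050, 1088 and 1106 CPM in WT 1 to 3. Ldhb was at 57.8, 29.9, 203, 158 and 79.1 CPM and at 266, 293 and 288 CPM. Every knockdown-labelled library was thus below every WT library for Ldhb, while Ldha lay on both sides of WT. The log2 fold change of Ldhb was -0.94 ± 0.30 in 6 libraries (adjusted p = 0.0578 in edgeR's test, 0.0128 in DESeq2's) and -1.42 ± 0.56 in 8 (0.234). For Ldha it was -0.36 ± 0.36 (0.488) and 0.21 ± 0.48 (0.858). Without knockdown-labelled library 3, edgeR called both lower (0.00957 for Ldhb and 0.0126 for Ldha). Ldhb held 24.8% to 26.1% of the summed FPKM of the pair in WT, 1.85% and 4.44% in the leukocyte-rich libraries and 16.2% to 22.9% in the other 3 labelled knockdown.

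At the entry of pyruvate into mitochondria, Mpc2 rose. Mpc1 and Mpc2 encode the subunits of the mitochondrial pyruvate carrier, and Mpc2 lies on chromosome 1 from 165461260 to 165481218. Mpc2 was at 119, 104, 93.5, 138 and 114 CPM in knockdown-labelled libraries 1 to 5 and at 64.1, 52.6 and 56.3 CPM in WT 1 to 3, with no overlap. It rose by 1.00 ± 0.19 on the log2 scale in 6 libraries (adjusted p = 0.0144 in edgeR's test). With 8 libraries the log2 fold change was nearly the same, 0.98 ± 0.19, without passing (0.137), and DESeq2 called it (7.18e-06). The call in 6 libraries ended without knockdown-labelled library 4 (0.0710), WT 2 (0.0724) or WT 3 (0.0753). Mpc1 was at 168, 154, 99.5, 99.8 and 108 CPM and at 91.3, 92.3 and 90.0 CPM, also without overlap. In FPKM its groups overlapped, at 139 to 172 and 133 to 148. The log2 fold change of Mpc1, 0.17 ± 0.15 in 6 libraries, did not pass (0.428).

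Neither of the 2 members that set the use of pyruvate in mitochondria passed. Pdk1, the kinase that switches pyruvate dehydrogenase off and a known HIF target, was at 74.0 and 70.9 CPM in knockdown-labelled libraries 1 and 2, at 32.1 to 40.6 CPM in the other 3 and at 30.2 to 36.9 CPM in WT. Pdha1, a catalytic subunit of the complex, was at 113 to 192 CPM and 146 to 154 CPM. The log2 fold changes in 6 libraries were 0.04 ± 0.19 for Pdk1 and -0.25 ± 0.15 for Pdha1, with adjusted p = 0.909 and 0.268 in edgeR's test.

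The HIF alpha genes differed from each other. Hif1a was at 78.5 to 96.8 CPM in the 5 knockdown-labelled libraries and at 89.4 to 102 CPM in WT, with a log2 fold change of -0.16 ± 0.16 in 6 libraries (adjusted p = 0.514 in edgeR's test). HIF1A is controlled mainly through the stability of its protein, which these data do not measure. Epas1 (chromosome 17, 86753864 to 86833410), which encodes HIF2A and is prominent in endothelium, was at 0.361, 0.706, 6.26, 7.34 and 2.95 CPM in knockdown-labelled libraries 1 to 5 and at 24.8, 22.8 and 33.9 CPM in WT 1 to 3. Every knockdown-labelled library was below every WT library. Epas1 fell by 2.30 ± 0.36 on the log2 scale in 6 libraries (0.00928), and leaving out any 1 of the 6 libraries left it called (adjusted p at most 0.0475). With 8 libraries the log2 fold change was -2.94 ± 0.89 (adjusted p = 0.168 in edgeR's test, 0.0130 in DESeq2's).

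Endothelial markers moved in the same direction as Epas1. Of 10 such genes 8 fell, 0 rose and 2 did not pass in the 6 libraries, with a median log2 fold change of -1.83. The list took 0.00644% to 0.0218% of counts in the knockdown-labelled libraries and 0.0551% to 0.0763% in WT. Emcn and Cldn5 had no count in knockdown-labelled libraries 1 and 2, nor Tek in knockdown-labelled library 2. The part of endothelial cells in the fall of Epas1 was not tested. Epas1 held 15.3% to 22.0% of the summed FPKM of the HIF alpha pair in WT, 2.58% to 7.20% in knockdown-labelled libraries 3 to 5 and 0.315% and 0.687% in the other 2.

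Of the oxygen sensors, Egln1 rose in the 6 libraries. Egln1 (chromosome 8, 124908587 to 124949254) encodes PHD2, the main prolyl hydroxylase acting on HIF1A. It was at 17.4, 15.4, 62.5, 60.9 and 78.8 CPM in knockdown-labelled libraries 1 to 5 and at 39.8, 17.7 and 27.3 CPM in WT 1 to 3. Knockdown-labelled libraries 3 to 5 were above every WT library, and knockdown-labelled libraries 1 and 2 were below. Egln1 rose by 1.26 ± 0.29 on the log2 scale (adjusted p = 0.0222 in edgeR's test), and with 8 libraries the log2 fold change was 0.73 ± 0.62 (0.574). The call ended without knockdown-labelled library 4 (0.0794) or 5 (0.0541), WT 2 (0.0718) or WT 3 (0.0896). Egln3, which encodes the hypoxia-inducible PHD3, was at 6.34, 17.6, 61.2, 41.0 and 32.1 CPM and at 42.4, 50.8 and 36.5 CPM, with a log2 fold change of 0.05 ± 0.26 in 6 libraries (0.900).

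**Figure D4:**
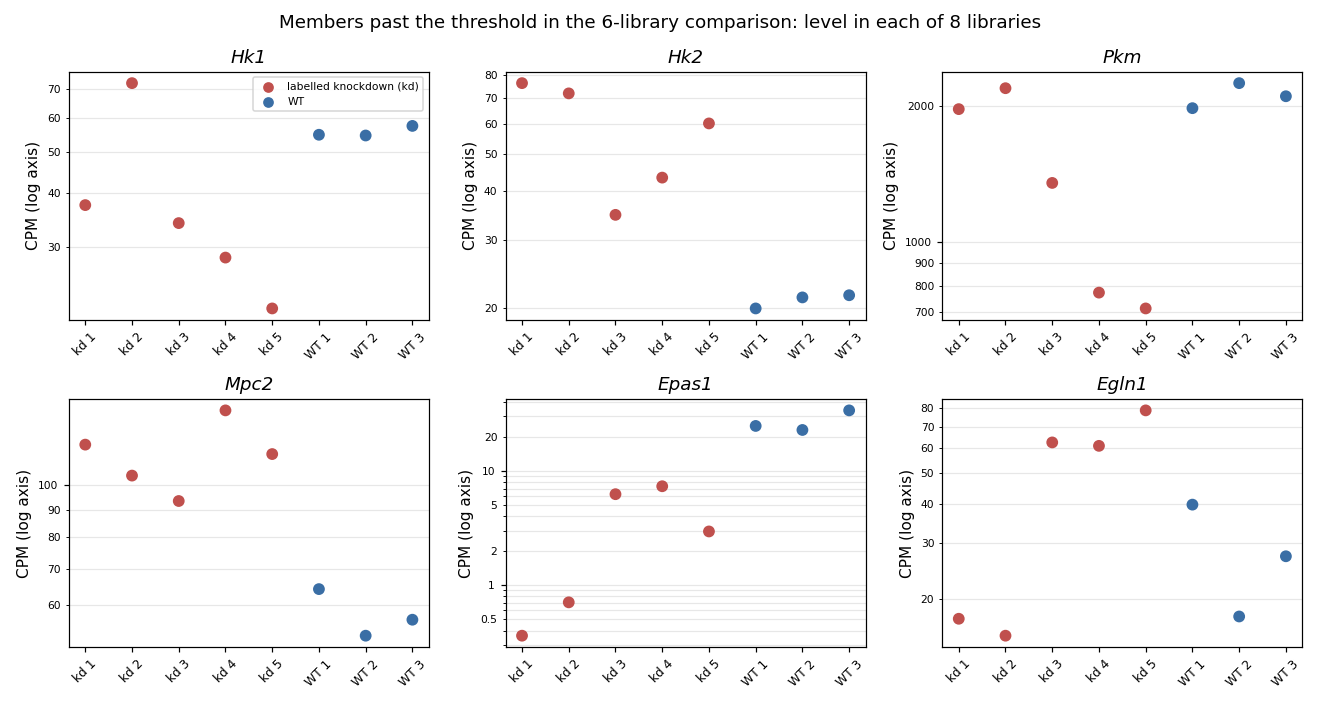
CPM (y axis, log scale, scaled over 8 libraries) of the 6 members that passed in the comparison of 6 libraries, with 1 point for each knockdown-labelled library (kd, red) or WT (blue). Hk2 and Mpc2 are above WT in all 5 knockdown-labelled libraries and Epas1 is below in all 5, while Hk1, Pkm and Egln1 overlap WT once knockdown-labelled libraries 1 and 2 are counted.

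The 4 members listed only as HIF targets were Vegfa, Ndrg1, Car9 and Bnip3, and none passed in the 6 libraries or the 8 in edgeR's test. Other members, many also known HIF targets, were given above by their step. Of those other members, Hk2, Mpc2 and Egln1 rose and Hk1, Pkm and Epas1 fell in the 6 libraries. Vegfa, the endothelial growth factor gene, was at 3.45, 6.83, 46.0, 71.2 and 90.5 CPM in knockdown-labelled libraries 1 to 5 and at 36.1, 51.9 and 61.5 CPM in WT 1 to 3. Ndrg1, a stress-responsive gene, was at 9.27, 4.90, 123, 50.6 and 67.0 CPM and at 37.5, 56.7 and 33.6 CPM. Both were lowest in the leukocyte-rich libraries and overlapped WT in the others. Their log2 fold changes in 6 libraries were 0.48 ± 0.28 (adjusted p = 0.253 in edgeR's test) and 0.92 ± 0.34 (0.0868), and DESeq2 called Ndrg1 higher (0.0369).

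Car9, the membrane carbonic anhydrase gene, was at 14.4, 12.2, 5.63, 4.07 and 3.27 CPM in knockdown-labelled libraries 1 to 5 and at 2.48, 1.35 and 2.86 CPM in WT 1 to 3. All 5 were above WT, at a low level. Its log2 fold change was 0.96 ± 0.48 in 6 libraries (adjusted p = 0.182 in edgeR's test) and 1.82 ± 0.68 in 8 (0.214), where DESeq2 called it (0.0277). Bnip3, which acts in mitophagy, was at 76.2, 74.8, 121, 44.2 and 36.1 CPM and at 68.6, 97.4 and 80.1 CPM. Knockdown-labelled library 3 was above WT and knockdown-labelled libraries 4 and 5 below. The log2 fold change of -0.28 ± 0.42 (0.649) became -1.05 without knockdown-labelled library 3 (0.00566).

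Genes of the same pathways outside the 32 were taken from 4 lists drawn up from textbook pathways. Of 19 genes that handle pyruvate and lactate, 1 rose, 4 fell and 14 did not pass in the 6 libraries, against 11.1% and 9.37% of all genes, with a median log2 fold change of -0.23. Pcx, the pyruvate carboxylase gene, was at 6.13, 6.78, 9.51, 10.7 and 9.22 CPM in knockdown-labelled libraries 1 to 5 and at 19.4, 23.4 and 24.4 CPM in WT 1 to 3. Gpt2, a mitochondrial alanine aminotransferase gene, was at 14.3 to 20.4 CPM and 33.4 to 41.3 CPM. Both were lower in all 5 knockdown-labelled libraries than in any WT library. In 6 libraries Pcx fell by 1.19 ± 0.22 on the log2 scale and Gpt2 by 1.10 ± 0.21 (adjusted p = 0.0136 and 0.0143 in edgeR's test). Dlat, a core subunit of the pyruvate dehydrogenase complex, fell by 1.09 ± 0.24 (0.0204). Slc16a7, the gene of the monocarboxylate transporter MCT2, rose by 1.68 ± 0.36 (0.0184), and it was at 54.4 and 48.7 CPM in knockdown-labelled libraries 1 and 2, at 10.7 to 14.8 CPM in the other 3 and at 2.42 to 4.69 CPM in WT. These 4 calls ended without knockdown-labelled library 4 (0.0629 to 0.102), WT 2 (0.0631 to 0.0792) or WT 3 (0.0683 to 0.0839), and Slc16a7 was called neither on log2(FPKM + 1) (0.0568) nor on log2(FPKM + 0.1) (0.0643).

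Over all genes in the 6 libraries, 11.1% rose and 9.37% fell. Of 20 tested genes from a list of 27 for other glycolytic isozymes and gluconeogenesis, 1 rose and 1 fell (median -0.20). The one that rose was Hk3, given above, and the one that fell was Adpgk, an ADP-dependent glucokinase gene, by 0.86 ± 0.26 (adjusted p = 0.0481 in edgeR's test). Leaving out any library except knockdown-labelled library 3 ended the call of Adpgk (0.0862 to 0.164). The 10 pentose phosphate genes had a median of -0.12 and, against the same shares of all genes, 1 of them rose and 0 fell. It was Rpia, the ribose phosphate isomerase gene, by 1.24 ± 0.37 (0.0452), a call that any omission other than that of knockdown-labelled library 3 also ended (0.0750 to 0.158), as did scaling with no composition factor (0.0522).

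A list of 40 other hypoxia response genes had 7 that rose and 3 that fell, with a median of -0.08, against 11.1% and 9.37% of all genes. Hif3a, whose product can restrain the other HIF factors, was at 2.22, 3.67, 36.6, 43.7 and 50.0 CPM in knockdown-labelled libraries 1 to 5 and at 12.8, 12.9 and 16.1 CPM in WT 1 to 3. It rose by 1.64 ± 0.21 on the log2 scale in 6 libraries (adjusted p = 0.00499 in edgeR's test). Car12, a carbonic anhydrase gene, was at 1.96, 0.801, 11.0, 11.8 and 12.4 CPM and at 44.5, 56.0 and 38.5 CPM, and fell by 1.98 ± 0.21 (0.00343). Lox, which encodes a collagen cross-linking enzyme, was at 0.206, 3.72, 60.1, 54.7 and 95.0 CPM and at 19.4, 17.1 and 20.8 CPM, and rose by 1.87 ± 0.25 (0.00521). These 3 calls held without any 1 of the 6 libraries (adjusted p at most 0.0406). Rora, a nuclear receptor gene, rose by 2.01 ± 0.36 (0.0129), and its call ended on log2(FPKM + 1) (0.202), on log2(FPKM + 0.1) (0.200) and without knockdown-labelled library 4 (0.0674), WT 2 (0.0560) or WT 3 (0.0624). Lox is a gene of connective tissue, and of 10 mesenchyme markers 5 rose and 0 fell in the same 6 libraries, with shares of 0.649% to 0.760% of counts in knockdown-labelled libraries 3 to 5 and 0.369% to 0.516% in WT. Their part in the change of Lox was not tested.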

How the data were processed

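RNA of about 200 sorted cells a tube was amplified with Smart-seq2, a method without strand marks or molecular identifiers, per the labels' protocols. HISAT, Bowtie2 and GRCm38.p6 are named in the submitters' processing notes, without versions. For the counting tool and the annotation, the sources used here give no name. The authors deposited, per the file headers, expected counts per gene without normalisation, FPKM values scaled to gene length and library size, and TPM values summing to 1000000. The normalised read counts deposited by the authors, a signal, equal the read count times 1 factor per library. They served to check units, and 8 columns of group means were not used.

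Expected counts were rounded, filtered with filterByExpr, scaled with TMM and tested two-sided in edgeR 4.0.16 (quasi-likelihood, robust; R 4.3.3), over the whole table. The adjusted p is Benjamini-Hochberg over all genes tested. Standard errors were taken from the test's F statistic. Paralogue shares used FPKM. Alternatives were DESeq2 1.42.0, limma 3.58.1 (voom, and log2(FPKM + 1) or log2(FPKM + 0.1)), other scalings and filters, and leaving out libraries. The fits were tested on simulated data. The members, lists and the choice of 6 libraries were made with earlier results of these data known. By rule, values in every library were given for called members and, up to 12, those with the smallest p, and up to 4 called genes of each pathway list were named. Other members were given in full where the libraries differed. Figures used Python 3.11.15 and matplotlib 3.10.9.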

Additional observations from a re-analysis of the deposited data

How the results depend on the processing

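With 6 libraries, all 6 called members kept their direction and their call under 8 other settings of test, scaling, filter and unit. The 3 members called lower became 7 with DESeq2, 14 with limma voom, 5 without a composition factor and 7 on either FPKM scale. Of all genes tested, 9.37% were lower in the main fit, 11.5% with DESeq2, 22.2% with limma voom and 11.5% without a composition factor. The share with DESeq2 is of the 18259 genes with a p-value, while the 28.8% given above is of the 15773 with an adjusted p. On log2(FPKM + 1) and log2(FPKM + 0.1) the shares were 13.0% and 12.6%. Leaving out 1 library gave 1 to 12 members lower and 0 to 3 higher, and 180 to 5982 genes in all, against 3090 in the fit of 6. Voom called 6900 genes. The pathway lists, of 20, 19, 10 and 40 tested genes, had 10 genes higher and 8 lower, where 11.1% and 9.37% of all genes were. With 1 library left out they had 2 to 14 higher and 1 to 25 lower. Of all genes, 0.673% to 19.2% and 0.492% to 19.6% were called in those fits. With voom 28 genes of the lists were lower, where 22.2% of all genes were.

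With 8 libraries, where edgeR called 0 genes, DESeq2 called 3 members higher, 1 lower and 2192 genes, and voom 3, 6 and 3692. Leaving out 1 library gave 0 to 2 genes and no member. With the replicate number as a block 0 members were called, and the log2 fold changes of Egln1, Ndrg1 and Eno1 were -0.074, -1.42 and 0.17, opposite in sign to those without it. Same-numbered libraries did not deviate together (correlations -0.0274, 0.0402 and -0.0449), so the number was not taken as a pairing, and the groups of the 6 libraries share 1 number, so no block could be fitted there. The median of all genes shifted by -0.24 with no composition factor, and by -0.42 on log2(FPKM + 0.1), in 8 libraries, and by -0.08 and -0.12 with 6. The share of calls that were higher was 54.1% with TMM, 45.4% with no composition factor, 38.4% on log2(FPKM + 1) and 39.3% on log2(FPKM + 0.1). The cause of these differences was not tested. A count of 3, the floor behind a count of 0, was 0.0966 to 0.155 CPM over the 8 libraries, and Epas1 at 0.361 and 0.706 CPM in knockdown-labelled libraries 1 and 2 came close to it.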

Other observations

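Other genes of the hypoxia list were singled out after their values were seen, and only genes that rose in the 6 libraries are given here. In that list of 40, 7 rose and 3 fell, where 11.1% and 9.37% of all genes did. Its log2 fold changes were positive for 18 genes and negative for 22. Hmox1, the heme oxygenase gene, was at 195, 179, 28.4, 261 and 293 CPM in knockdown-labelled libraries 1 to 5 and at 22.3, 21.9 and 25.6 CPM in WT 1 to 3. Knockdown-labelled library 3 was close to WT and the other 4 far above it. The log2 fold change of Hmox1 in 6 libraries was 3.06 ± 0.69 (SE, adjusted p = 0.0211 in edgeR's test). The call held without knockdown-labelled library 3 and ended without any 1 of the other 5 (0.0670 to 0.0927), with no low-count filter and on both FPKM scales (at most 0.0723). Higd1a, a mitochondrial survival gene, was at 66.9, 68.2, 120, 157 and 155 CPM and at 86.2, 81.2 and 88.1 CPM. It was thus above WT in knockdown-labelled libraries 3 to 5 and below it in the 2 with high leukocyte markers. Higd1a rose by 0.76 ± 0.17 (adjusted p = 0.0205 in edgeR's test), a call that ended without knockdown-labelled library 4 (0.0918), WT 1 (0.0612), WT 2 (0.0970) or WT 3 (0.0918). Fam162a, a HIF target of mitochondria, was at 71.4, 66.1, 115, 130 and 100 CPM and at 70.7, 63.8 and 63.4 CPM. It rose by 0.81 ± 0.17 (adjusted p = 0.0171 in edgeR's test), a call that ended without knockdown-labelled library 4 (0.0850), WT 2 (0.0859) or WT 3 (0.0922).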
